A study of Heterocephalus glaber with 9 samples.

Results

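Mitochondrial ribosomal proteins build the ribosome inside mitochondria, and their genes were examined here in livers of old and young naked mole-rats (Heterocephalus glaber). Members were all rows of the deposited count table whose gene symbol begins with MRPL or MRPS followed by a digit. This gave 74 of 16339 rows, of which 47 were MRPL genes (large subunit) and 27 were MRPS genes (small subunit). The measured material was polyadenylated RNA of whole liver, with 1 library per animal. The 3 old males, called A, B and C, were 20, 30 and 20 years old by the labels, which also call them non-breeders. The study's own text gives the old animals a minimum age slightly above the labels of A and C, so these ages are approximate. The 6 young males were 2.7, 2.8, 3.4, 3.7, 3.8 and 4.1 years old and carry no breeding status in the labels. Each liver is named here by its letter or its age. No animal received a treatment and no allele was altered.

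The mitochondrial ribosome translates the small set of messages encoded by mitochondrial DNA, which specify core subunits of the respiratory chain and of ATP synthase. All of its proteins are encoded in the nucleus, made in the cytosol and imported, and only its RNAs come from the mitochondrial genome. Many of these proteins descend from bacterial ribosomal proteins, while others exist only in mitochondrial ribosomes. Liver is rich in mitochondria and depends on them for much of its metabolism.

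The livers held between 15176226 and 20048731 counts (old) and between 14541856 and 20464409 counts (young). Levels are given as CPM (a gene's counts scaled to a common library size) after TMM normalization, a scaling that assumes most genes do not change. TMM factors were 1.12 to 1.19 in old livers and 0.840 to 0.986 in young livers, so the choice of scaling bears on every comparison of age. In the labels, no prefix of the library names holds both ages and only the young libraries are records that also belong to another deposit, so batch and age cannot be told apart. Within the old group, the library name of liver A carries a prefix of its own, which calls it merged, while B and C share another. Hepatocyte markers were present in all livers, but their summed level was 60349 CPM in liver A, 164790 CPM in B and 138690 CPM in C, against 188560 to 286920 CPM in young livers. Among markers of other cells, stellate cell and fibroblast markers (12 of 12 in the table) summed to 120 to 176 CPM in old livers and 233 to 323 CPM in young livers. Endothelial markers (10 of 10) were at 978 CPM in A and 425 to 455 CPM in B and C, against 302 to 517 CPM in young livers. Kupffer cell and macrophage markers (11 of 12) were at 133 CPM in A and 594 to 667 CPM in B and C, against 324 to 497 CPM in young livers. Erythroid markers (6 of 8) were at 54.9 to 96.5 CPM in old livers, against 213 to 385 CPM in 5 young livers and 899 CPM in the liver of 4.1 years. Cholangiocyte markers (6 of 7) summed to 153 to 224 CPM in old livers and 185 to 341 CPM in young livers, and lymphocyte markers (11 of 12) to 19.0 to 29.6 CPM in old livers and 10.4 to 22.1 CPM in young livers. In some lists the markers did not all move with the sum. Liver A was highest for 6 and lowest for 3 of 10 endothelial markers. These counts were 3 and 2 of 6 for cholangiocyte markers and 2 and 11 of 17 for hepatocyte markers. They were 1 and 10 of 11 for Kupffer cell and macrophage markers and 0 and 8 of 12 for stellate cell and fibroblast markers. For lymphocyte markers they were 3 and 0 of 11, and for erythroid markers 0 and 1 of 6. No marker in the table was at 0 in all livers, and the part of these differences in the results below was not tested. In whole tissue, fewer cells of a type and less RNA per cell cannot be told apart.

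Messages of both subunits were mostly lower in old than in young livers, although few passed the test for a single gene. Of the 72 members with enough counts for testing (46 MRPL and 26 MRPS), 63 had a negative log2 fold change of old over young, against 49.2% of all 12277 genes tested. By edgeR's quasi-likelihood test at a false discovery rate (FDR) of 0.1, 5 members fell in old livers, 1 rose and 66 did not pass. Across all genes tested, 3.65% fell and 11.7% rose, so the share of members that fell (6.94%) was above the background while the share that changed at all (8.33%) was below the 15.4% of all genes. In the large subunit 4 of 46 members fell and none of the others passed, with 42 negative fold changes and a median of -0.46 on the log2 scale. In the small subunit 1 of 26 fell, 1 rose and 21 fold changes were negative, with a median of -0.52. The median over all genes tested was 0.02, with quartiles at -0.45 and 0.60. Without liver A the medians were -0.23 for MRPL and -0.33 for MRPS members, and -0.02 for all genes. The remaining members, MRPL51 (0 to 2 counts per liver) and MRPS33 (0 to 3 counts), were too low to test.

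**Figure D1:**
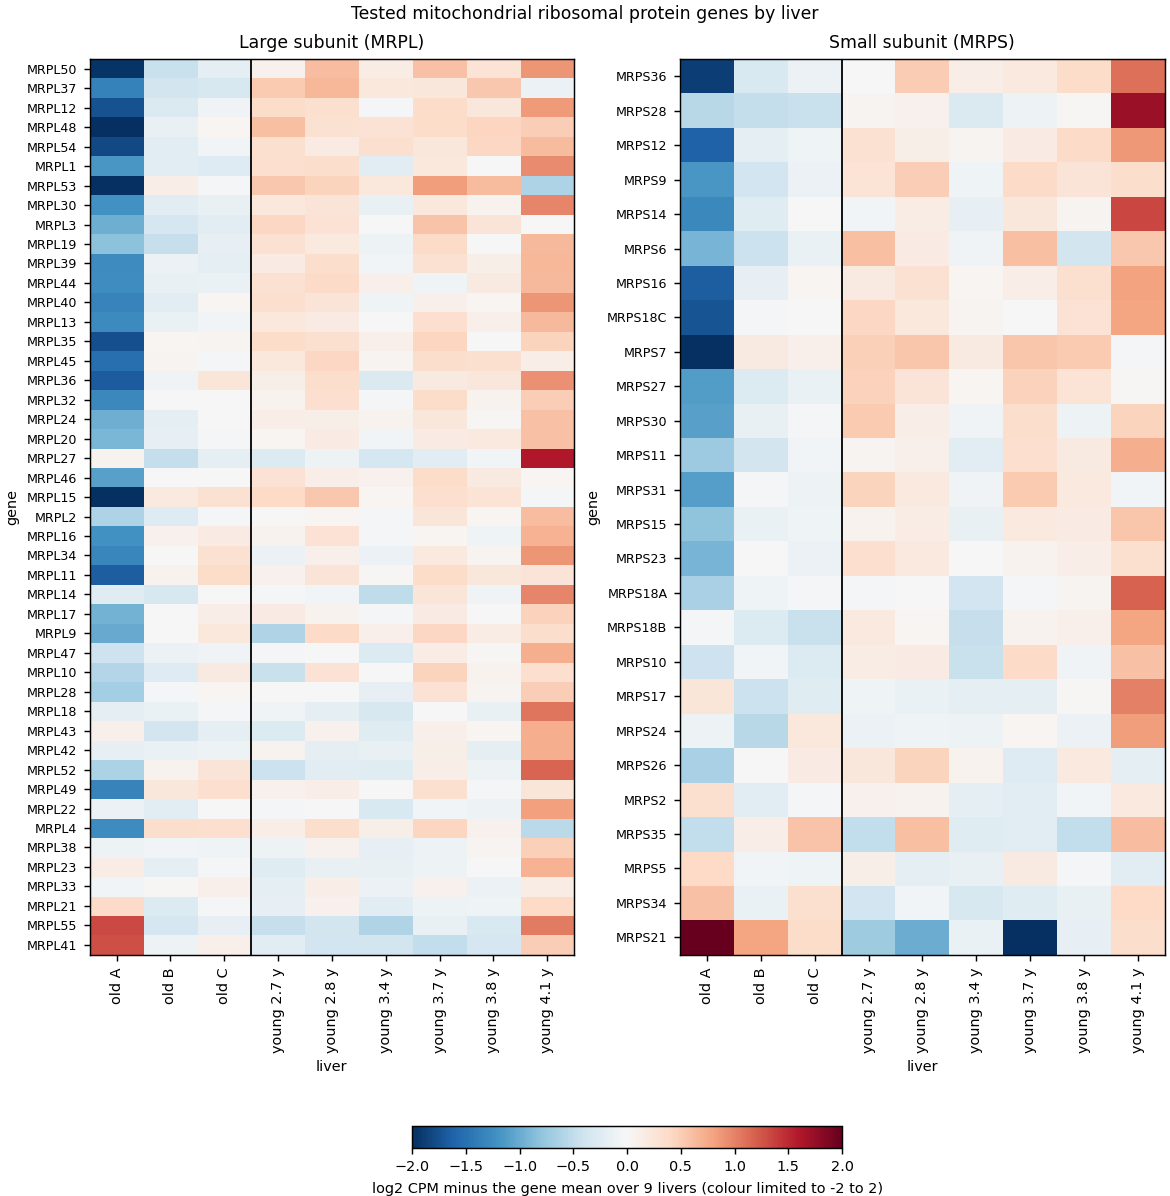
Level of each tested member (rows, MRPL left and MRPS right) in each liver (columns, old livers A, B and C left of the line and young livers by age right of it). Colour is log2 CPM minus the gene's mean over 9 livers, with blue below and red above it. Liver A is the lowest of the 9 livers for 51 of 72 members and the young liver of 4.1 years is the highest for 46.

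In 20 members all old livers lay below all young livers (27.8% of those tested, against 8.01% of all genes), 13 of them in the large and 7 in the small subunit. The opposite order occurred in 1 member, MRPS21, against 9.83% of all genes. At an unadjusted p under 0.05, 19 members (26.4%) passed in edgeR, against 29.1% of all genes, and 17 of them (23.6% of the members tested) had a negative fold change, against 9.28% of all genes. The counts of called members rest on narrow margins. Without liver A, no member passed FDR 0.1, and the background fell to 3.48% of genes called. In that run 9 members (12.5%) had an unadjusted p under 0.05 in edgeR, against 17.9% of all genes. All 9 were negative, against 7.97% of all genes that had such a p and a negative fold change. Leaving out a single young liver of 2.7, 2.8, 3.7 or 3.8 years also left no member past the threshold. In these runs 13 to 15 members (18.1% to 20.8%) had an unadjusted p under 0.05 in edgeR, against 23.3% to 24.2% of all genes. Those that were also negative made up 16.7% to 19.4% of members, against 6.96% to 7.43% of all genes. Without the liver of 3.4 years only MRPS21 passed FDR 0.1 in edgeR. The loss was not particular to the members, since calls over all genes fell to 1.53%, 1.86%, 2.32% and 3.30% without the livers of 2.7, 2.8, 3.7 and 3.8 years and to 8.11% without that of 3.4 years. DESeq2 called 15 members lower and 1 higher, against 8.72% and 14.5% of all genes. Voom with quality weights called 18 lower and 2 higher, against 16.8% and 20.5% of all genes. When counts were scaled by library totals alone, the median of all genes moved to 0.31, and those of MRPL and MRPS members were -0.15 and -0.23. In that run 3 members passed as higher (28.3% of all genes) and 0 as lower (1.96%). At an unadjusted p under 0.05 in edgeR, 2 members (2.78%) were negative, against 3.07% of all genes.

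In the large subunit, the 4 decreases were in genes of both kinds of descent, bacterial and mitochondrial. MRPL37, a protein found only in mitochondrial ribosomes, had 49.5, 97.3 and 101 CPM in old livers A, B and C, against 116 to 200 CPM (median 164) in young livers. Its old livers were all below its young livers, with a log2 fold change of -0.97 ± 0.29 (standard error; edgeR FDR 0.072). MRPL3, the counterpart of a bacterial protein near the site of peptide bond formation, had 20.1, 31.6 and 33.8 CPM in old livers, against 39.5 to 59.3 CPM (median 48.1) in young livers. It fell without overlap between the ages by 0.75 on the log2 scale (standard error 0.24, edgeR FDR 0.0792).

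MRPL50, another protein without a bacterial counterpart, had 11.5, 32.6 and 39.5 CPM in old livers, against 47.4 to 82.5 CPM (median 60.6) in young livers. Liver A was the lowest by a wide margin, and the decrease was -1.14 ± 0.37 (edgeR FDR 0.0837), the most negative of all members. MRPL19, which like its bacterial counterpart sits on the face of the large subunit that meets the small one, had 15.1, 19.4 and 23.9 CPM in old livers and 24.8 to 41.995 CPM (median 31.8) in young livers. Liver C was close to the lowest young liver, and the fold change was -0.72 ± 0.24 (edgeR FDR 0.0908). Without A alone the 4 genes did not pass in edgeR (FDR 0.151 to 0.231), where 3.48% of all genes were called in either direction. Their log2 fold changes were then -0.71 for MRPL37, -0.56 for MRPL3, -0.77 for MRPL50 and -0.56 for MRPL19. Without A and the young liver of 4.1 years, the 4 genes passed as lower in edgeR (FDR 0.0151 to 0.0802). Their log2 fold changes were then -0.79 for MRPL37, -0.61 for MRPL3, -0.67 for MRPL50 and -0.47 for MRPL19. In that comparison of 2 old with 5 young livers 11.7% of all genes were called lower.

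**Figure D2:**
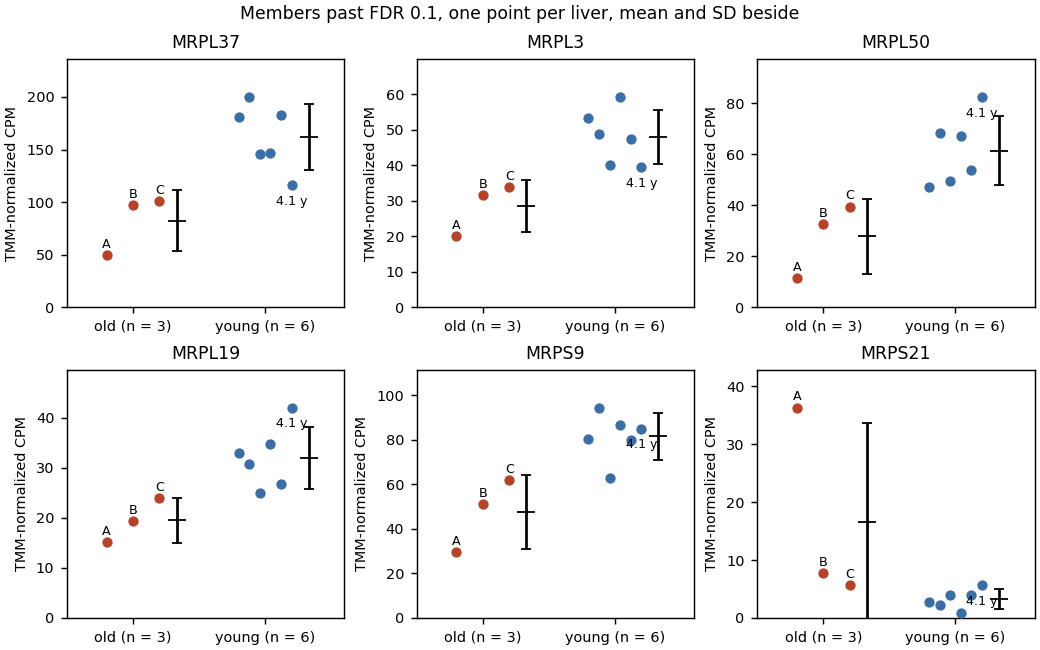
TMM-normalized CPM of the 6 members past FDR 0.1 in each old liver (red, labelled A, B and C, left) and each young liver (blue, ordered by age, right), with mean and SD in black beside each group. The 5 decreases hold in each old liver, while in MRPS21 liver A stands at 36.3 CPM and livers B and C are at 7.71 and 5.70 CPM (its lower SD bar is cut at 0).

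A further 9 large-subunit members had old livers entirely below young livers without passing FDR 0.1. MRPL12, the stalk protein through which translation factors are recruited and which also binds the mitochondrial RNA polymerase, had 14.3, 39.0 and 45.4 CPM in old livers, against 47.0 to 86.6 CPM (median 60.7) in young livers. Its log2 fold change was -0.92 ± 0.35 (edgeR FDR 0.119), and livers B and C were near the lowest young liver. MRPL54 had 3.58, 10.9 and 12.1 CPM in old livers and 14.0 to 19.5 CPM (median 15.7) in young livers, and MRPL48 had 2.85, 13.3 and 15.1 CPM in old livers and 18.03 to 22.3 CPM (median 19.3) in young livers. In both of these mitochondria-specific proteins A was several times lower than B and C, and the fold changes were -0.86 ± 0.34 (edgeR FDR 0.134) and -0.91 ± 0.41 (edgeR FDR 0.173). Without liver A the fold changes were -0.56 for MRPL12, -0.48 for MRPL54 and -0.47 for MRPL48. The others were MRPL39, MRPL44 (a protein with an RNase III-like fold), MRPL13, MRPL24, MRPL2 (near the peptidyl transferase centre) and MRPL46. Their log2 fold changes lay between -0.70 for MRPL39 and -0.45 for MRPL2, at edgeR FDRs of 0.135 to 0.239, and without A between -0.42 for MRPL39 and -0.20 for MRPL46.

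In several other large-subunit members liver A was the lowest liver. In MRPL15, MRPL11 and MRPL10 it alone lay below the young range. MRPL15 had 5.03 CPM in A and 23.8 and 25.7 CPM in B and C, against 20.4 to 30.4 CPM (median 25.6) in young livers, so that B and C lay inside the young range. Its log2 fold change was -0.47 ± 0.41 with A and -0.02 without it. MRPL11, which together with MRPL10 forms the base of the stalk, had 14.3 CPM in A and 47.2 and 57.6 CPM in B and C, against 45.7 to 57.7 CPM (median 53.0) in young livers, and its fold change of -0.38 became 0.02 without A. MRPL10 itself had 47.5, 60.1 and 80.7 CPM in old livers and 52.3 to 97.2 CPM (median 81.3) in young livers, with a fold change of -0.33 ± 0.26 (edgeR FDR 0.400). In livers B and C, MRPL12 was below the young range and MRPL11 and MRPL10 were within it. The difference between these stalk genes was not tested. MRPL45, which anchors the ribosome to the inner membrane at the exit of the nascent chain, had 27.9, 82.3 and 77.0 CPM in old livers, against 82.1 to 105 CPM (median 95.5) in young livers. Here the groups overlapped narrowly, with a fold change of -0.60 ± 0.31 (edgeR FDR 0.226), or -0.24 without A. Without A the fold change of MRPL10 was -0.16.

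Only 4 large-subunit members had positive fold changes, and none passed. MRPL41, a mitochondria-specific protein, had 50.5, 19.2 and 22.1 CPM in old livers, against 14.6 to 29.1 CPM (median 16.2) in young livers, a log2 fold change of 0.75 ± 0.33 (edgeR FDR 0.166). MRPL55, also specific to mitochondria, had 46.4, 14.7 and 16.6 CPM in old livers and 12.2 to 38.1 CPM (median 14.6) in young livers, a log2 fold change of 0.50 ± 0.45 (edgeR FDR 0.464). In both genes A was the highest of the 9 livers and the young liver of 4.1 years was next. Without A the fold change was 0.18 for MRPL41 and -0.22 for MRPL55. MRPL21 and MRPL33 differed by 0.06 and 0.03.

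In the small subunit, MRPS9 fell. The counterpart of bacterial S9, it had 29.7, 51.2 and 61.9 CPM in old livers, against 63.0 to 94.5 CPM (median 82.7) in young livers. All old livers lay below the young ones, C only narrowly, and the log2 fold change was -0.78 ± 0.26 (edgeR FDR 0.0896). It was -0.53 without A (edgeR FDR 0.183) and -0.52 without A and the young liver of 4.1 years (edgeR FDR 0.0611).

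MRPS21 rose, against the direction of most members. The counterpart of bacterial S21, it had 36.3, 7.71 and 5.70 CPM in old livers, against 0.768 to 5.68 CPM (median 3.34) in young livers. Liver A exceeded all others several-fold, and liver C was only just above the young liver of 4.1 years. The log2 fold change was 2.35 ± 0.62 (edgeR FDR 0.0550). It was 1.05 without A (edgeR FDR 0.332) and 1.29 without A and the young liver of 4.1 years (edgeR FDR 0.0893). Its 13 counts in a young liver were the fewest of any tested member in any liver, and in the RefSeq gene table the gene overlaps that of a long non-coding RNA.

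A further 6 small-subunit members had old livers entirely below young livers without passing the test. MRPS27, which carries pentatricopeptide repeats, a fold that binds RNA, had 14.6, 26.3 and 28.8 CPM in old livers and 32.2 to 43.6 CPM (median 38.1) in young livers. It lay just outside the threshold, at -0.71 ± 0.25 (edgeR FDR 0.102), and the last member inside it was MRPL19. MRPS36, a protein later assigned to the alpha-ketoglutarate dehydrogenase complex, had 2.96, 8.79 and 10.02 CPM in old livers and 11.0 to 23.5 CPM (median 13.3) in young livers. Its log2 fold change was -1.02 ± 0.39 (edgeR FDR 0.123), the most negative of the MRPS genes. MRPS28 had 13.4, 14.1 and 14.5 CPM in old livers and 16.2 to 64.8 CPM (median 20.2) in young livers, so that the old livers were nearly alike and the young liver of 4.1 years stood far above the rest. Its log2 fold change was -0.94 ± 0.45 (edgeR FDR 0.187), and -0.42 without A and that young liver. Without A alone the fold changes were -0.46 for MRPS27, -0.65 for MRPS36 and -0.90 for MRPS28.

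The other 3 were MRPS12, the counterpart of the bacterial decoding-centre protein S12, MRPS16 and MRPS18C. MRPS12 had 4.08, 11.1 and 11.9 CPM in old livers and 13.0 to 22.8 CPM (median 14.7) in young livers, a log2 fold change of -0.81 ± 0.34 (edgeR FDR 0.148). In the RefSeq gene table MRPS12 overlaps SARS2, the mitochondrial seryl-tRNA synthetase gene, which rose in old livers by a log2 fold change of 1.30 (edgeR FDR 0.0503). The library kit does not mark strand, so reads from the overlap of these genes cannot be told apart. MRPS16 and MRPS18C had log2 fold changes of -0.74 and -0.72 (edgeR FDR 0.183 and 0.202), with A far below B and C in both. Without A the fold changes were -0.46 for MRPS12, -0.38 for MRPS16 and -0.34 for MRPS18C.

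The 3 counterparts of bacterial S18 were compared because they are paralogs. MRPS18A, which sits in the large subunit despite its name, had 21.8, 32.3 and 33.9 CPM in old livers and 26.4 to 77.6 CPM (median 33.8) in young livers. MRPS18B had 39.6, 33.5 and 29.5 CPM in old livers and 29.3 to 69.5 CPM (median 42.8) in young livers. MRPS18C had 7.32, 23.6 and 24.1 CPM in old livers and 24.3 to 41.9 CPM (median 28.8) in young livers. Only in MRPS18C did the ages not overlap, and the fold changes of MRPS18A and MRPS18B were -0.45 ± 0.34 and -0.41 ± 0.27 (edgeR FDR 0.388 and 0.314). The difference between paralogs was not tested. MRPS30, another member placed in the large subunit despite its name, had a log2 fold change of -0.59 ± 0.28 (edgeR FDR 0.186). MRPS34 had the next highest fold change of the subunit after MRPS21, 0.38 ± 0.24 (edgeR FDR 0.295), with 48.7, 29.6 and 40.4 CPM in old livers and 24.97 to 42.9 CPM (median 28.5) in young livers.

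**Figure D3:**
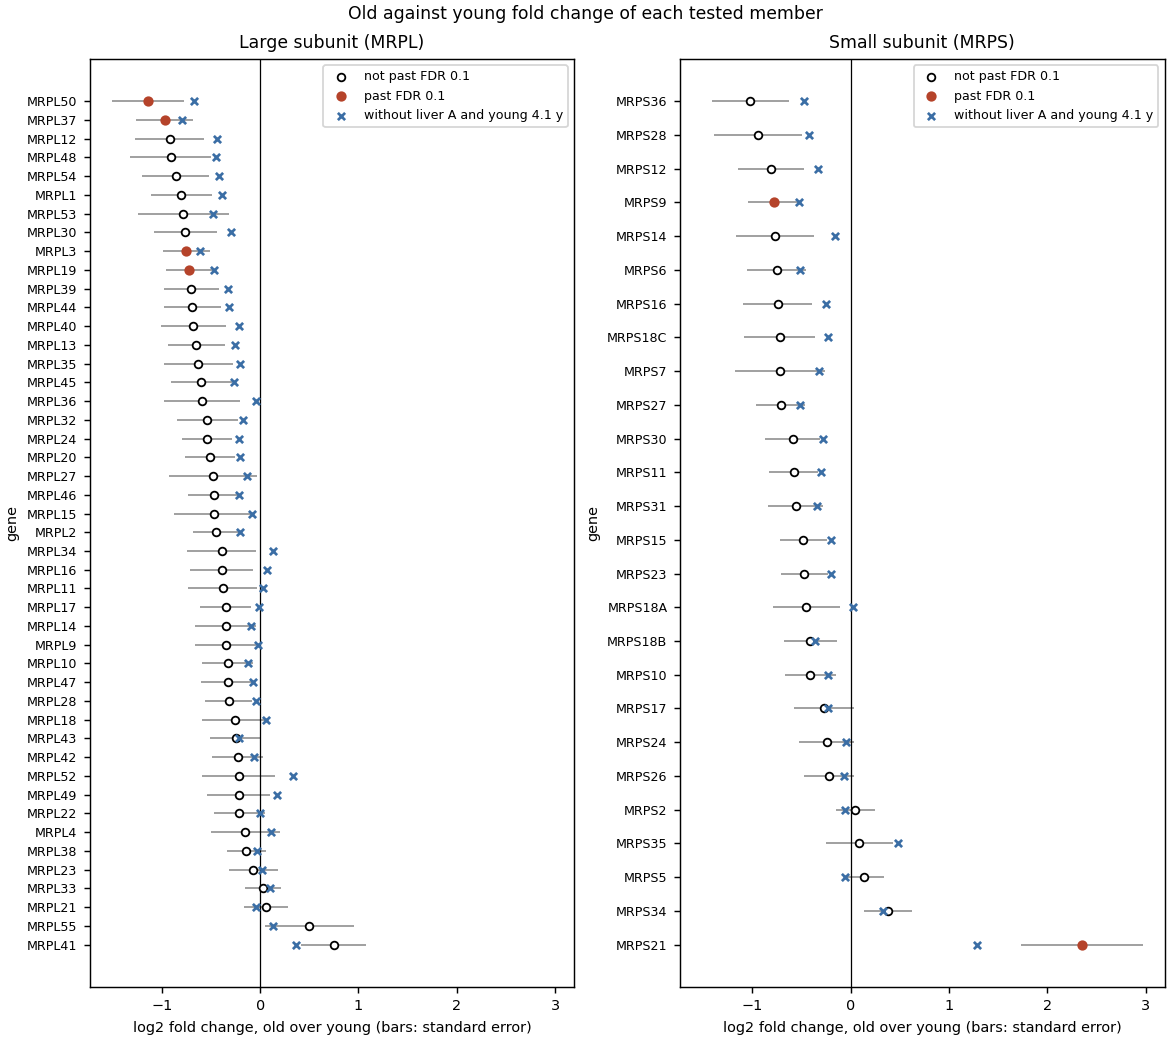
Log2 fold change of old over young livers for each tested member (rows), MRPL left and MRPS right, with standard errors as bars. Filled points passed FDR 0.1 (MRPL50, MRPL37, MRPL3, MRPL19, MRPS9 and MRPS21), and crosses give the value without old liver A and the young liver of 4.1 years, most of which lie nearer to 0.

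Members were also set apart by descent, which the rule did not use. In the large subunit, the 28 tested members with a bacterial counterpart had a median log2 fold change of -0.42, with 2 lower, and the 18 that are specific to mitochondria had -0.53, with 2 lower. In the small subunit, the 18 with a bacterial counterpart had a median of -0.53, with 1 lower and 1 higher, and the 8 that are specific to mitochondria had -0.52 with none past FDR 0.1 in edgeR. Without A and the young liver of 4.1 years the medians of members with a bacterial counterpart were -0.08 in the large and -0.23 in the small subunit, and those of mitochondria-specific members were -0.22 and -0.24.

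Much of the difference between the ages came with single livers. Liver A was the lowest of the 9 livers in 51 of 72 members (70.8%), against 32.5% of all genes, and the highest in 6. The young liver of 4.1 years was the highest of the 9 in 46 members (63.9%), against 15.7% of all genes, and the lowest in 1. The median log2 difference of A from the mean of B and C was -1.01 in MRPL and -0.71 in MRPS members, against -0.01 over all genes. The median difference of the young liver of 4.1 years from the other 5 was 0.48 in MRPL and 0.60 in MRPS members, against 0.00 over all genes. The largest such excess was in MRPL27, a protein near the peptidyl transferase centre, with 181 CPM against 46.6 to 57.2 CPM in the other young livers.

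Livers B and C differed less from the younger young livers. The median of B and C minus the 5 young livers under 4.1 years was -0.12 in MRPL and -0.23 in MRPS members, against -0.01 over all genes. B and C both lay within the range of the 6 young livers in 34 members, both below it in 21 and both above it in 1. The shares of all genes in these positions were not computed, so these counts have no background beside them. In edgeR without A and the young liver of 4.1 years, 12 members passed as lower (11.7% of all genes did) and 2 as higher (14.2% of all genes). Those higher were MRPL41 and MRPS21. The 12 included all 5 that fell with 9 livers. Across members, the deviations of A and of the young liver of 4.1 years from the rest of their group were correlated positively, with Pearson's r of 0.58 over 46 MRPL and 0.30 over 26 MRPS genes and 0.54 over all genes. This is a description across genes that share the same libraries and are not independent.

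**Figure D4:**
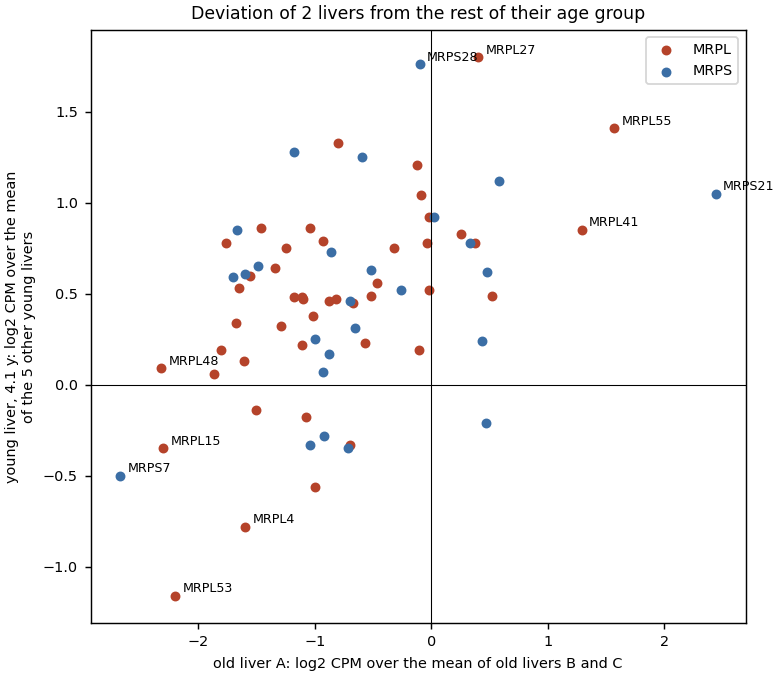
Each point is a tested member (red MRPL, blue MRPS). The x axis gives log2 CPM of old liver A over the mean of B and C, and the y axis gives log2 CPM of the young liver of 4.1 years over the mean of the 5 other young livers. Most points lie left of 0 (median -0.88) and above 0 (median 0.51), while MRPL41, MRPL55 and MRPS21 are high in both livers.

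Summed over members, MRPL messages were at 1005, 1448 and 1597 CPM in old livers A, B and C, against 1553 to 2396 CPM (median 1810) in young livers. MRPS messages summed to 561, 662 and 742 CPM in old livers, against 683 to 1113 CPM (median 804) in young livers. For both sums A and B were below all young livers and C was inside the young range. As a share of all counts, without TMM scaling, the members took 0.185%, 0.235% and 0.266% in old livers and 0.219% to 0.306% in young livers, so that only A was below the young range. The ratio of the MRPL to the MRPS sum was 1.79, 2.19 and 2.15 in old livers and 2.09 to 2.37 in young livers. It averaged 2.04 ± 0.220 (SD, n = 3) in old livers and 2.21 ± 0.0982 (SD, n = 6) in young livers, a difference of -0.168 that did not pass an exact permutation test (two-sided p = 0.190, 84 splits). Without A the difference was -0.0413 (exact permutation p = 0.571).

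Members of the study's list of positively selected genes were MRPL30, MRPS11 and MRPL15. MRPL30 had 13.3, 26.6 and 27.9 CPM in old livers and 27.7 to 60.9 CPM (median 35.7) in young livers. MRPS11 had 16.8, 21.6 and 26.7 CPM in old livers and 23.7 to 46.1 CPM (median 30.7) in young livers. In both, the highest old liver was inside the young range, and the log2 fold changes were -0.76 ± 0.32 and -0.58 ± 0.25 (edgeR FDR 0.145 and 0.156), or -0.49 and -0.43 without A. MRPL15, given above, had an FDR of 0.458 in edgeR. MRPS11 and MRPL46 are direct neighbours in the RefSeq gene table, and MRPL46 had a log2 fold change of -0.47 ± 0.26 (edgeR FDR 0.239), or -0.20 without A.

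Among genes that serve the mitochondrial ribosome, few passed the test, in shares to be read against the 11.7% of all genes that rose and the 3.65% that fell. Of 28 tested genes of ribosome assembly and ribosomal RNA modification, 2 rose and none of the others passed, with a median log2 fold change of -0.26. They were WBSCR16 (RCC1L), an assembly factor, at 51.8, 36.0 and 35.2 CPM in old livers and 20.3 to 26.2 CPM in young livers (log2 fold change 0.80, edgeR FDR 0.0507), and the RNA helicase gene DHX30 (0.94, edgeR FDR 0.0552). Without A the fold change was 0.60 for WBSCR16 (edgeR FDR 0.0965) and 0.62 for DHX30 (edgeR FDR 0.164). Of 16 translation factors, GUF1, the mitochondrial counterpart of the elongation factor LepA, fell to 2.57, 2.11 and 1.30 CPM in old livers, against 5.53 to 7.67 CPM in young livers (-1.73, edgeR FDR 0.0312). PDF, which removes the formyl group from new mitochondrial proteins, rose (1.41, edgeR FDR 0.0776), with A at 10.6 CPM and B and C at 2.51 and 3.34 CPM, against 1.54 to 3.24 CPM in young livers. GUF1 was lowest in liver C and PDF was highest in A. Without A the fold change of GUF1 was -1.95 (edgeR FDR 0.0230), and that of PDF was 0.52 and no longer passed (edgeR FDR 0.440).

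Of 19 mitochondrial aminoacyl-tRNA synthetases, which charge the tRNAs, SARS2 and VARS2 rose (1.30 and 0.97, edgeR FDR 0.0503 and 0.0530) and FARS2 fell (-1.23, edgeR FDR 0.0447). Without A, FARS2 still passed (-0.95, edgeR FDR 0.0712), while SARS2 (0.68, FDR 0.133) and VARS2 (0.62, FDR 0.149) did not. Of 8 genes of mitochondrial transcription and DNA maintenance, C10orf2 (the helicase Twinkle) and POLG (the mitochondrial DNA polymerase) rose (1.20 and 0.90, edgeR FDR 0.0439 and 0.0614), and the list's median was 0.12. Neither passed without A, at 0.79 for C10orf2 and 0.59 for POLG (edgeR FDR 0.104 and 0.167). Among the 7 mitochondrial ribosomal proteins under other names none passed (median -0.24). DAP3, a small-subunit protein of this list, had 202 CPM in A and 61.2 and 64.9 CPM in B and C, against 59.6 to 88.5 CPM in young livers (0.67, edgeR FDR 0.230, and -0.12 without A).

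Lower values also occurred in protein lists outside the mitochondrial ribosome. Nuclear subunits of complex I, the entry point of the respiratory chain, had a median log2 fold change of -0.69, with 35 of 36 negative and 3 past FDR 0.1 in edgeR, all lower. The median over subunits of complexes II to V was -0.73, with 42 of 44 negative and 3 lower. Cytosolic ribosomal proteins had a median of -0.57, with 79 of 80 negative and 2 lower. Over all genes tested 49.2% were negative and 3.65% were called lower. The calls in these lists were lost in edgeR without A, where 3.48% of all genes were called in either direction, against 15.4% with A. The medians without A were -0.37 for complex I, -0.42 for complexes II to V and -0.25 for cytosolic ribosomal proteins. Without A and the young liver of 4.1 years these medians were -0.24, -0.26 and -0.12, beside -0.12 for MRPL and -0.23 for MRPS members and -0.01 for all genes. The share of negative fold changes is thus not particular to the mitochondrial ribosome, and differences between the lists were not tested.

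**Figure D5:**
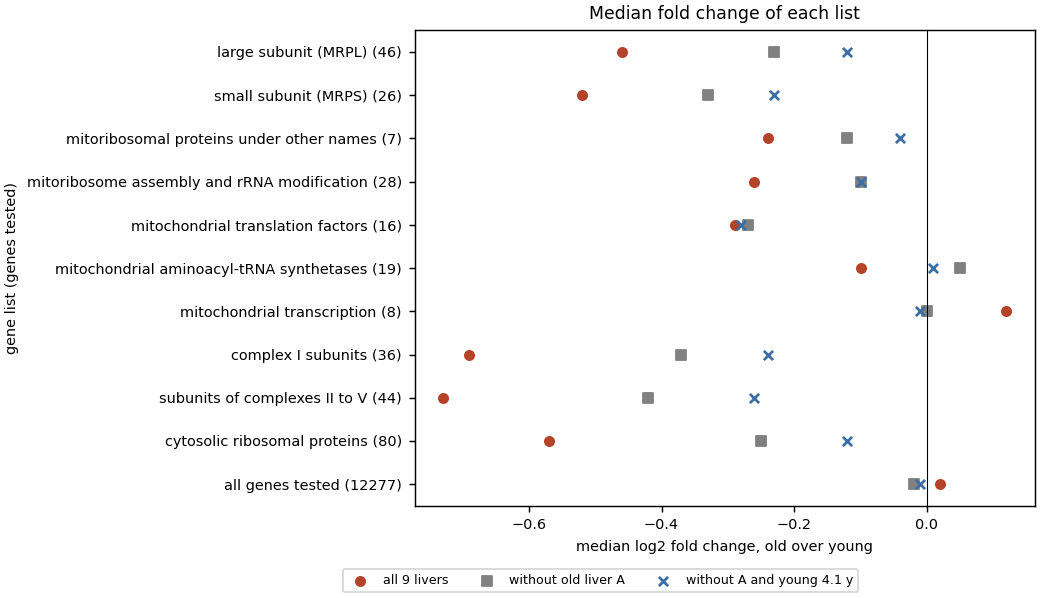
Median log2 fold change of old over young livers (x axis) for each gene list (rows, number of genes tested in brackets), with all 9 livers (circles), without old liver A (squares) and without A and the young liver of 4.1 years (crosses). Medians of MRPL and MRPS members lie at -0.46 and -0.52, between the assembly and translation factor lists (-0.26 and -0.29) and the respiratory chain lists (-0.69 and -0.73).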

How the data were processed

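The authors made the deposited read counts, which are whole numbers per gene and not normalized. Per the paper and the submitters' processing notes, single-end reads from a TruSeq RNA v2 kit were mapped with STAR 2.4.1d to the public genome with the authors' own annotation, only reads with a single place were kept, and genes were counted with HTSeq, for which the sources used here give neither version nor strand setting. Reads that fit close paralogs equally well were therefore lost. The authors tested with DESeq2.

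The deposited table holds 16339 rows. Left out were 93 rows in which the order of symbols depends on upper and lower case (0.319% of counts) and 25 rows with symbols turned into dates (0.133%), none of them members. This left 16221 rows, of which 12277 passed filterByExpr by age group. The 3 old livers were set against the 6 young ones by edgeR 4.0.16 in R 4.3.3 (TMM factors, robust glmQLFit, glmQLFTest, no covariates) with Benjamini-Hochberg adjustment over all genes tested at the paper's threshold of FDR 0.1. The standard error is the log2 fold change divided by the square root of F. The script was tested on simulated data. Alternatives used DESeq2 1.42.0, limma 3.58.1, other scalings and filters, and leaving out livers. The ratio of sums was tested with an exact permutation test (scipy 1.17.1). The labels do not pair animals across ages, and libraries are separate animals. The p-values thus rest on the spread between libraries within an age, in which animal and library handling cannot be told apart.

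The members, gene lists and tests were chosen with earlier results of these data known. Scaling by total counts alone was added after seeing the data. Members to name were those past FDR 0.1, those with the lowest p outside it, those whose ages do not overlap, the study's positively selected members, the MRPS18 paralogs and MRPL12, and the 3 genes of lowest p in each other list, of which a part is printed. MRPL27, MRPL4, MRPL10, MRPL11, MRPL45, MRPS14, MRPS30, MRPL55 and DAP3 were named after their values were seen, as was the division by bacterial descent. Gene neighbours come from NCBI RefSeq's table of another assembly, which matched 73 of 74 members and in which 16 overlap a protein-coding gene. Levels were not compared between genes, because no transcript lengths were used. Comparisons with protein length, per coding length and of promoter motifs were not run.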

Additional observations from a re-analysis of the deposited data

Results flagged for a closer look

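In 13 of the named members the young liver of 4.1 years stood further from the other young livers than Dixon's 95% limit for 6 values allows. Chance passes this limit in about 1 in 20 groups. Members that were not named are not listed, although some also stood apart in this liver, such as MRPS17 at 60.2 CPM (others 26.1 to 30.5). The share over all genes was not computed. Each of these values comes from the same library. In the large subunit it had 181 CPM of MRPL27 (others 46.6 to 57.2), 97.9 CPM of MRPL24 (others 66.7 to 76.6), 60.9 CPM of MRPL30 (others 27.7 to 36.8), 58.2 CPM of MRPL2 (others 37.0 to 44.8), 38.1 CPM of MRPL55 (others 12.2 to 16.8) and 29.1 CPM of MRPL41 (others 14.6 to 17.5). In the small subunit it had 79.2 CPM of MRPS14 (others 28.2 to 36.8), 77.6 CPM of MRPS18A (others 26.4 to 35.8), 64.8 CPM of MRPS28 (others 16.2 to 20.8) and 42.9 CPM of MRPS34 (others 24.97 to 31.3). There it also had 26.7 CPM of MRPS16 (others 15.7 to 19.2), 23.5 CPM of MRPS36 (others 11.0 to 15.5) and 22.8 CPM of MRPS12 (others 13.0 to 16.4). The groups of 3 old livers are too small for this rule.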

How the results depend on the processing

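The directions of the medians held under every alternative run, but the counts of called members did not. With the main settings 11.7% of all genes were called higher and 3.65% lower. Scaling by total counts alone gave 1 MRPL member higher and 0 lower (median -0.15) and 2 MRPS members higher and 0 lower (median -0.23). There the median of all genes was 0.31, with 28.3% called higher and 1.96% lower. DESeq2's test gave 10 MRPL and 5 MRPS members lower, where 8.72% of all genes were called lower. Voom with quality weights gave 1 MRPL member higher, 12 MRPL and 6 MRPS members lower, and medians of -0.12 and -0.24. It called 20.5% of all genes higher and 16.8% lower. Without A and the young liver of 4.1 years there were 1 MRPL member higher, 8 MRPL and 4 MRPS members lower, and medians of -0.12 and -0.23. In that run 14.2% of all genes were called higher and 11.7% lower. At FDR 0.05 no member passed in edgeR (0 of each subunit and direction). At an unadjusted p under 0.05 in edgeR there were 19 (26.4%, against 29.1% of all genes). For MRPS members lower, DESeq2 size factors and the rows put back gave 2, and upper quartile scaling and no filter on low counts gave 0. Of all genes, 481 of 12277 were called lower with DESeq2 size factors and 522 of 12376 with the rows put back. Upper quartile scaling called 416 of 12277 lower, and no filter called 375 of 15436, against 448 of 12277 with the main settings. Leaving out each liver in turn gave 0 to 1 MRPL members higher and 0 to 6 lower. For MRPS members it gave 0 to 1 higher and 0 to 3 lower. Over all genes the share called in these runs lay between 1.53% (without the young liver of 2.7 years) and 24% (without that of 4.1 years). Without C, which gave the most members lower, 538 of 12439 genes were called lower. The MRPL median then ranged between -0.67 (without C) and -0.23 (without A), and the difference in the MRPL to MRPS ratio between -0.24 and -0.0413. Among named members, MRPL27 lay between -0.63 without A and 0.02 without the young liver of 4.1 years. MRPL55 lay between -0.22 without A and 0.86 without the young liver of 4.1 years (0.78 without B). MRPS18A was 0.02 without A and the young liver of 4.1 years. MRPL4, a large-subunit protein that was at -0.15 with 9 livers, was 0.13 with total counts alone, 0.13 with voom, 0.11 without A and the young liver of 4.1 years and 0.21 without A, against -0.38 without B. MRPL11 was 0.03 with voom, 0.03 without those livers and 0.02 without A, against -0.75 without C. Where the calls changed, the cause was not tested. For named members, 659 values under the alternatives kept their direction and side of the FDR threshold. A further 51 were no longer past it, 40 came past it and 10 changed sign. The threshold was FDR 0.1, except in the alternative at FDR 0.05, where members past only FDR 0.1 count among the 51.

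No paired analysis was possible because the replicate names are those of single animals and no name occurs at both ages. The alternative with promoter motifs was not run. With 3 old livers, differences of the size seen here lie near the limit of the test, and members with few counts, such as MRPS21, are measured less precisely than the others.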
